A study of Populus x canadensis with 4 samples.

Results

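Predicted candidate microRNAs were analysed in a leaf small RNA table of the poplar hybrid Populus × euramericana 'Neva'. They are the sequences of the authors' deposited leaf table whose names begin with PC-5p or PC-3p and carry no microRNA family number. The table held 44 such sequences among 529, and the other 485 had a family name. Of the 44, 20 were named as the 5p arm and 24 as the 3p arm, and 3 of them stood in 2 rows that were summed. The plants had been rooted from cuttings in water culture, moved to nutrient solution, and given para-hydroxybenzoic acid (pHBA) for 3 days at 0, 2, 4 or 8 mM. All 4 groups were of the same cultivar and tissue, and the 0 mM plants had the same handling without the acid. pHBA is a phenolic acid, and the comparison asks how leaf small RNA levels differ with its dose. RNA of plants under the same treatment was pooled in equal parts, so each dose was a single library and the spread between plants is unknown.

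MicroRNAs are cut from a folded, hairpin-shaped precursor. In plants the enzyme DCL1 makes the cuts and releases a short duplex of the 5p and 3p arms with overhanging 3′ ends, and usually 1 arm is kept in an Argonaute protein. Plant microRNAs are mostly 21 nt long, and many begin with U, the base favoured by AGO1. Leaves also hold many 24 nt small interfering RNAs, which DCL3 cuts from double-stranded RNA. Those often begin with A, are bound by AGO4 and its relatives, and guide DNA methylation at transposons and repeats. A predicted candidate is a sequence that a program placed on a precursor able to fold in this way, without a match to a listed family. The candidates were predicted by the authors from these same libraries, so their direction between doses is not independent evidence of a response.

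The sequences below carry the results that follow, and T stands for U as in the deposited table. The first set holds the 4 related candidates of 23 or 25 nt, among which are the abundant candidates with the highest ratios to 0 mM. Capitals mark the stretch that aligned with PC-5p-36295_177, and in PC-3p-58497_92 that stretch aligned as its reverse complement. In PC-5p-36295_177 itself the capitals mark the stretch aligned with PC-5p-25553_269.
PC-5p-36295_177: ggtgatcagAGTGGGCACACGAG
PC-5p-25553_269: aAGTGGGTCACACGAGccgtcca
PC-5p-46215_128: aAGTGGGTCACACAAGccgtcca
PC-3p-58497_92: aCTTGTGTGGCCGACTCCGATCACt

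The second set is the largest group of overlapping candidates, with 8 members on both strands. Capitals mark the longest run shared with PC-5p-21240_332, read as the reverse complement for the members named 3p.
PC-5p-21240_332: AATCCAACAACACCAAGAAAGGTC
PC-5p-99778_42: acaacatCAAGAAAGGTCatcaat
PC-3p-43151_141: tGACCTTTCTTGGTGTTGc
PC-3p-177469_17: agtGACCTTTCTTGGTGTTGc
PC-3p-50815_113: ttctTTGGTGTTGTTGGATTtgtc
PC-3p-68114_74: atcgttaatGACCTTTCTTGGTGT
PC-3p-144023_24: tatgatcttctTTGGTGTTGTTGG
PC-3p-229467_11: gaccttcCTTGGTGTTat

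The third set gives the 3 pairs that could form a duplex with 2-base 3′ overhangs at both ends. Capitals mark the stretch that lies opposite the partner, and lower case marks the overhang.
PC-5p-19672_361: TTTGATGGGAAAGAATTATtt
PC-3p-79202_59: GTAGTTCTTTCCCATCAAAcc
PC-5p-43210_141: ATTCTTTTGCTCATTTGATcc
PC-3p-19917_356: ATCAAATGAGTAAAAGAGTct
PC-5p-162832_20: CGAGTATAATAGCAAACTCTTTgc
PC-3p-153705_22: CAAAAGTTTGTTTTTATACTTGgt

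The fourth set holds 21 nt candidates without a listed read at 0 mM. Next is the candidate with the lowest ratios at 2 and 4 mM among those abundant enough for a ratio. The most abundant candidate comes last. Capitals mark the seed, bases 2 to 8 from the 5′ end.
PC-5p-44713_134: cTTTTCTGccacattcatgcc
PC-3p-70722_70: tTAAACTAcaagaccccctgc
PC-3p-102599_40: tTCCCATGacttaaccatgat
PC-3p-71534_69: aTAGATTAtaagttcata
PC-3p-15056_476: tCTCTGCAcagaatcgcctccac

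The untreated library was the shallowest, with 2640653 table reads, where the 2, 4 and 8 mM libraries held 4998878, 6369127 and 5310499. Levels are the authors' normalized read counts, which are raw reads times 1 factor per library and are not divided by length. Raw reads of all candidates numbered 952, 1912, 3015 and 1840 in order of dose. In the untreated library they made up 0.0361% of the table (95% Wilson interval 0.0338 to 0.0384). With pHBA the share was 0.0382% under 2 mM (0.0366 to 0.0400), 0.0473% under 4 mM (0.0457 to 0.0491) and 0.0346% under 8 mM (0.0331 to 0.0363). The share at 4 mM lay above those of the other libraries, and the intervals at 0 and 8 mM overlapped. All intervals given here cover counting error only, since PCR copies are not separate molecules and each dose had 1 library.

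Reads were listed for 26, 37, 38 and 34 of the 44 candidates at 0, 2, 4 and 8 mM. Of the candidates, 23 had reads in all 4 libraries, 9 in 3, 4 in 2 and 8 in a single library. Of the 18 without a read at 0 mM, 8 had reads at all 3 treated doses. The single-library candidates comprised 2 listed at 0 mM alone, 3 at 2 mM alone and 3 at 4 mM alone. The lowest candidate value above 0 was 5 reads, and whether the authors applied a minimum before deposit was not tested. A 0, counted as 3 reads, left room for normalized read counts up to 4.07 at 0 mM and 2.96, 2.50 and 2.67 at the rising doses. When the treated libraries were scaled to the depth of the untreated one and values under 5 were set to 0, 13, 13 and 20 candidates stood at 0 at 2, 4 and 8 mM, against 18 at 0 mM. Of these, 6, 7 and 10 had been brought to 0 by the scaling. Under the same rule 160, 181 and 170 named sequences stood at 0 at 2, 4 and 8 mM, against 114 at 0 mM.

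The candidates were scarce next to named microRNAs. Their highest mean over the 4 libraries was 296, where 80 named sequences had a mean above 1000. Of the 44, 27 candidates had a mean normalized read count of at least 10, the minimum for a ratio. Just inside that limit were PC-3p-144023_24 with a mean of 10.4 and PC-5p-100532_41 with 10.2, and just outside were PC-5p-162832_20 with 9.19 and PC-3p-113511_35 with 7.04. The 5 most abundant candidates held 44.9%, 57.5%, 59.2% and 56.4% of the candidate reads at 0, 2, 4 and 8 mM. A total over candidates is therefore mostly a statement about a few sequences.

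**Figure D1:**
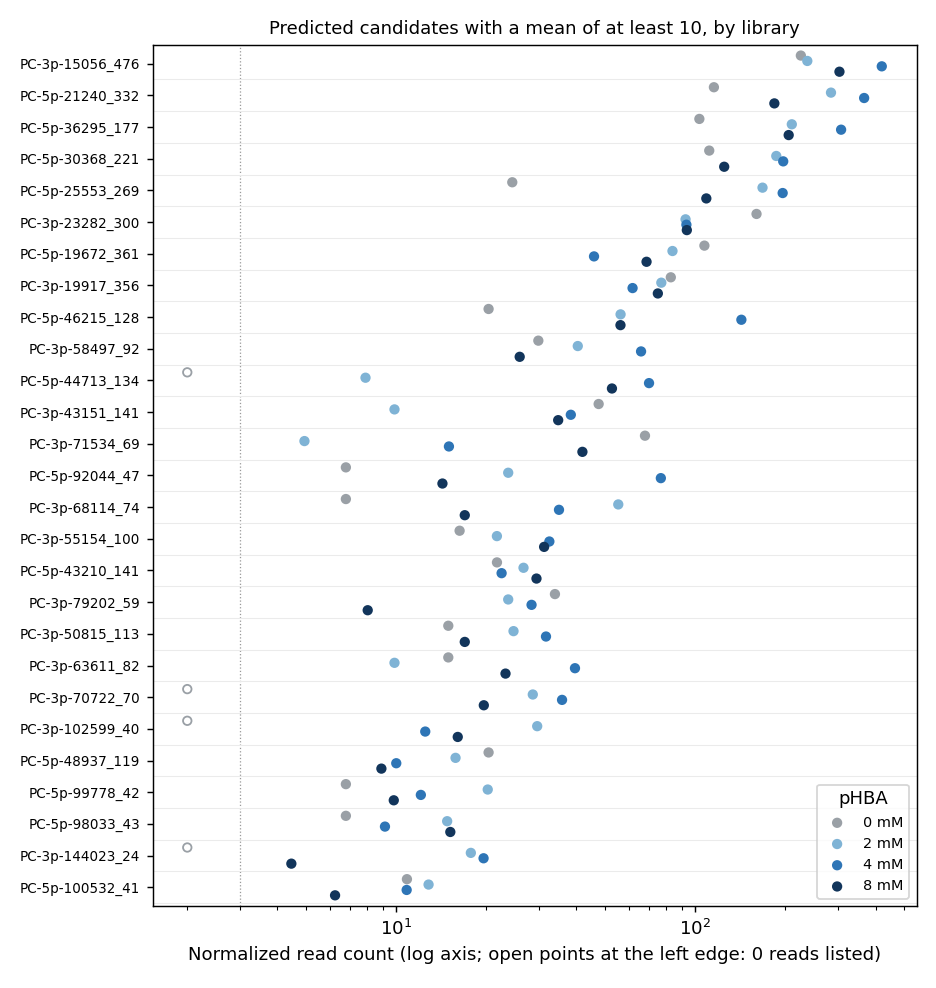
Normalized read count (log axis) of the 27 candidates with a mean of at least 10, ordered by mean, with 1 point for each of the 4 libraries; open points left of the dotted line mark 0 listed reads. The 4 mM point is the highest of the 4 for 14 of the 27 candidates.

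Length set the candidates apart from the named sequences. Of the candidates 20 were 24 nt long, or 45.5%, against 36 of 485 named sequences, or 7.42%. Another 14 candidates were 21 nt long, or 31.8%, against 236 named sequences, or 48.7%. At 22 nt there was 1 candidate, against 81 named sequences, and no candidate had 20 nt. The remaining candidates comprised 2 of 18 nt, 1 of 19 nt, 4 of 23 nt and 2 of 25 nt. The 24 nt candidates were mostly the scarce ones: 8 of the 27 with a mean of at least 10 were 24 nt long and 11 were 21 nt long.

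**Figure D2:**
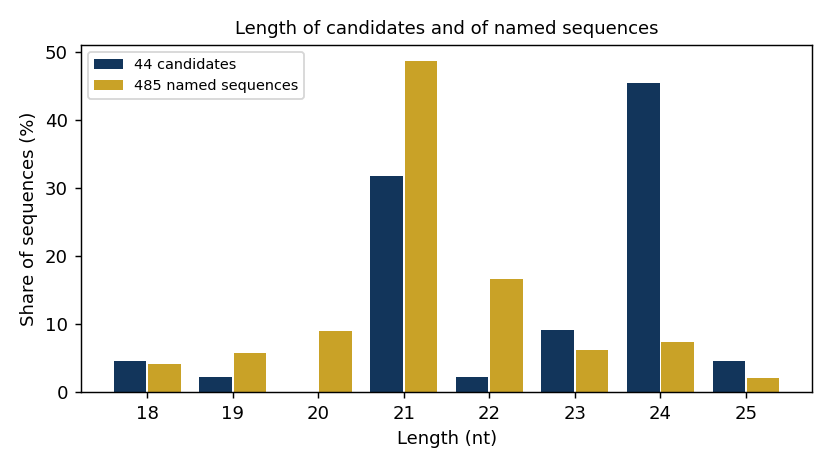
Share of sequences (%) at each length for the 44 candidates and the 485 named sequences, as bars from 0. Candidates peak at 24 nt with 45.5% and named sequences at 21 nt with 48.7%.

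The most frequent first base differed with length in both classes. T came first in 8 of the 14 candidates of 21 nt, and in 126 of the 236 named sequences of that length. A came first in 9 of the 20 candidates of 24 nt and T in 6, and A in 19 of the 36 named sequences of 24 nt. The median GC content was 41.7% in candidates, with a range of 16.7 to 62.5%, and 47.6% in named sequences.

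The make-up of the candidate reads by length differed between doses. On the authors' scale, candidates of 21 nt summed to nearly level amounts. They had 457, 455, 436 and 435 normalized read counts at 0, 2, 4 and 8 mM. Those of 23 nt summed to 373, 670, 1065 and 673, and those of 24 nt to 283, 692, 867 and 423. With equal library totals the log2 ratios of these sums shift by -0.46, -0.57 and -0.40 at 2, 4 and 8 mM. The 21 nt sums are then lower with pHBA than without it. They also join members that moved in opposite directions. The 18 nt class had 4.93, 14.99 and 41.9 at the 3 treated doses, against 89.5 without the acid, its highest value. As shares of the candidate reads, 21 nt sequences made up 24.2%, 17.4% and 26.5% at 2, 4 and 8 mM, against 35.4% at 0 mM.

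Ratios to 0 mM were taken on log2(normalized read count + 1), and a sequence at least 2-fold apart was counted. The added 1 understates differences of scarce sequences that had reads in both libraries. Where 0 mM had 0 reads, it gives a larger difference than the bound set against 3 reads. PC-5p-44713_134, for example, had a log2 ratio of 3.15 at 2 mM, beside a bound of 1.94-fold. With 1 library per dose there is no test and no p-value. At 2 mM 12 of the 27 candidates, or 44.4%, were at least 2-fold higher and 2 were lower, where 20.9% of all 350 sequences with a mean of at least 10 were higher and 23.7% lower. At 4 mM 13 candidates, or 48.1%, were higher and 2 lower, against 18.9% and 25.7% of all sequences. At 8 mM 8 candidates, or 29.6%, were higher and 2 lower, against 14.9% and 21.4% of all. These counts include 4 candidates with 0 reads at 0 mM, which reached the minimum mean through the treated libraries and so had to be higher. Without them 8 of 23, or 34.8%, were higher at 2 mM, 9, or 39.1%, at 4 mM and 4, or 17.4%, at 8 mM, with 2 lower at each dose. Of the 8 at 2 mM, PC-5p-92044_47, PC-3p-68114_74, PC-5p-99778_42 and PC-5p-98033_43 had 5 reads at 0 mM. They too reached the minimum mean through the treated libraries. The shares over all 350 sequences still include the 4 candidates and any named sequences with 0 reads at 0 mM. Shares over the 23 are therefore not like for like with them, and no conclusion is drawn from the difference. The median log2 ratio of candidates was 0.69, 0.95 and 0.47 at 2, 4 and 8 mM, or 0.39, 0.82 and 0.42 over the 23, and that of all sequences 0.04, 0.03 and -0.02.

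Set beside the 201 named sequences of like level, whose means lay between 10.2 and 296, the direction differed. Of these, 47, 41 and 36 were at least 2-fold higher and 58, 59 and 56 lower at 2, 4 and 8 mM, with median log2 ratios of -0.02, -0.11 and -0.12. The untreated library had fewer reads, and the counts moved with the scaling. When every library was scaled to the same total, log2 ratios shifted by -0.46, -0.57 and -0.40, and 26 candidates kept a mean of at least 10. Of those 26, 7 were then higher and 3 lower at 2 mM, 9 and 4 at 4 mM, and 5 and 6 at 8 mM, with medians of 0.12, 0.37 and 0.08. The named sequences of like level then had medians of -0.56, -0.70 and -0.55, below those of the candidates on both scales. The candidate medians include members with 0 or 5 reads at 0 mM, which reached the minimum mean through the treated libraries. Medians without these members are not given for equal totals, so the gap may reflect how the candidates were selected.

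Summed over all 44, the candidate level was 1885, 2511 and 1640 at 2, 4 and 8 mM, against 1291 at 0 mM. That is 1.46-fold higher at 2 mM (95% exact binomial interval 1.35 to 1.58), 1.94-fold higher at 4 mM (1.81 to 2.09) and 1.27-fold higher at 8 mM (1.17 to 1.38). With equal library totals the ratio at 8 mM turned to 0.961, while those at 2 and 4 mM were 1.06 and 1.31. The level at 4 mM was thus above 0 mM on both scales, and the direction at 8 mM depended on the scaling.

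The highest of the 4 libraries was 4 mM for 14 of the 27 candidates, or 51.9%, 0 mM for 7, 2 mM for 4 and 8 mM for 2. Among the named sequences of like level 4 mM was highest for 44, or 21.9%, and 0 mM for 79. With equal totals, 4 mM was highest for 11 of 26 candidates. In all, 17 of the 27 candidates were above 0 mM at each of the 3 doses and 7 were below at each. The 17 include the 4 candidates with 0 reads at 0 mM, which could not be below it. Counts shared by all 3 doses are not given for named sequences. Whether those of the candidates are unusual therefore cannot be judged. On the log2 scale with the pseudocount, 7 of the 27 were at least 2-fold higher at every dose, of which 4 had 0 reads at 0 mM: PC-5p-44713_134, PC-3p-70722_70, PC-3p-102599_40 and PC-3p-144023_24. With a 0 taken as 3 reads, the bound of the first was under 2-fold at 2 mM and that of the last at 8 mM. The other 3, with reads in all 4 libraries, were PC-3p-68114_74, PC-5p-25553_269 and PC-5p-46215_128.

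The differences varied with length in candidates and in named sequences, but the order of the lengths was not the same in both. The 8 candidates of 24 nt had median log2 ratios of 1.37, 1.505 and 0.63 at 2, 4 and 8 mM, and 5, 6 and 2 of them were at least 2-fold higher, with 0 lower. The 16 named sequences of 24 nt and like level had medians of 2.69, 2.63 and 1.78. The 11 candidates of 21 nt had medians of 0.28, 0.05 and 0.42, beside -0.11, -0.15 and -0.12 in 87 named sequences of 21 nt. The 4 candidates of 23 nt had 1.22, 2.16 and 1.20, against 0.38, 0.39 and 0.30 in 16 named sequences of that length. Among these candidates, PC-5p-36295_177, PC-5p-25553_269 and PC-5p-46215_128 are related in sequence and are not separate observations. The remaining member, PC-3p-15056_476, had 0.07, 0.90 and 0.43. The 2 candidates of 25 nt had medians of 0.32, 0.56 and -0.46, beside 0.59, 0.80 and 0.53 in 4 named sequences of 25 nt. The only candidates of 18 or 19 nt with a mean of at least 10 were 2, with log2 ratios below 0 at each dose. The 22 named sequences of 18 or 19 nt had medians of -1.73, -1.42 and -1.26. With equal library totals the medians were 0.84, 0.81 and 0.22 over 7 candidates of 24 nt, and those of the 21 nt candidates turned to -0.16 and -0.49 at 2 and 4 mM with 0.04 at 8 mM. Within a length class and on the authors' scale, the candidates of 24 nt were no higher in median than named sequences of the same length. Those of 21 and 23 nt had higher medians, from which no conclusion is drawn. The 21 nt class includes PC-5p-44713_134, PC-3p-70722_70 and PC-3p-102599_40, which had 0 reads at 0 mM. They reached the minimum mean through the treated libraries, and medians without them are not given. A list of families like transfer or ribosomal RNA fragments was chosen by family number, with no sequence match tested. Its named sequences took 0.725%, 1.26% and 1.17% of table reads under 2, 4 and 8 mM, against 1.96% without pHBA. The part of the length make-up of each library in the candidates' ratios was not tested.

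**Figure D3:**
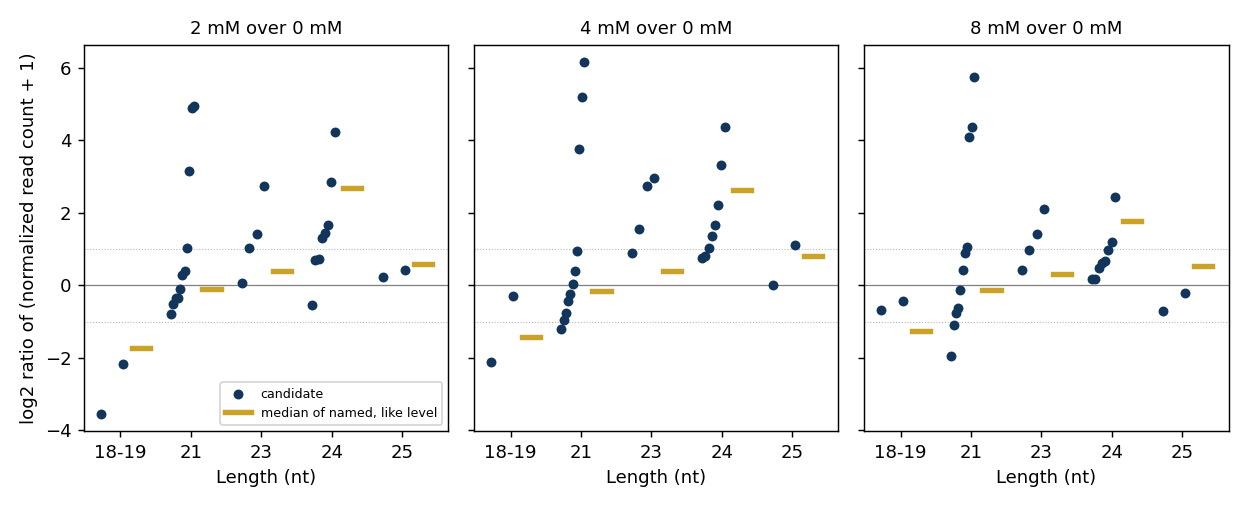
Log2 ratio to 0 mM of each of the 27 candidates (points) by length in nt, 1 panel per treated dose, beside the median of named sequences of like level and the same length (bars); dotted lines mark 2-fold. Candidates of 24 nt had medians of 1.37, 1.505 and 0.63 at 2, 4 and 8 mM, and those of 21 nt 0.28, 0.05 and 0.42.

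By arm, the 13 candidates named 5p had median log2 ratios of 1.02, 0.82 and 0.67 at 2, 4 and 8 mM, and the 14 named 3p had 0.23, 1.00 and 0.30. Of the 5p candidates 8, 6 and 4 were at least 2-fold higher, against 4, 7 and 4 of the 3p candidates. The order of the arms was thus not the same at 4 mM as at the other doses. With equal totals the 3p medians were -0.39, 0.41 and -0.21 and the 5p medians 0.61, 0.25 and 0.27.

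The most abundant candidate was PC-3p-15056_476, a 23 nt sequence. Its normalized read count was 225, 237, 420 and 303 at 0, 2, 4 and 8 mM. It was 1.86-fold higher at 4 mM than at 0 mM (1.56 to 2.24) and 1.35-fold higher at 8 mM (1.11 to 1.63). At 2 mM the ratio was 1.05 (0.859 to 1.29) and fell under 1 with equal library totals. The named sequence nearest in mean level, a form of miR408, a family that targets copper proteins in Arabidopsis, was listed as hbr-miR408a_R-1_1ss6TG. It ran the other way, with 549, 402, 98.3 and 126 at 0, 2, 4 and 8 mM.

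The first set of sequences held the abundant candidates with the highest ratios. PC-5p-25553_269 and PC-5p-46215_128 are 23 nt long, differ at a single base, G14A (counted from 1 at the 5′ end), and share the seed AGTGGGT. They were the only 2 candidates with a seed in common. PC-5p-25553_269 had 24.4, 167.6, 196 and 109 over the 4 doses in rising order. It was 6.87-fold higher at 2 mM than at 0 mM (4.21 to 11.9), 8.02-fold higher at 4 mM (4.96 to 13.8) and 4.45-fold higher at 8 mM (2.70 to 7.77). These were the highest ratios at each dose among the 10 most abundant candidates, and with equal totals they were 4.99, 5.41 and 3.37.

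PC-5p-46215_128 had 20.3, 56.2, 142 and 56.2 at 0, 2, 4 and 8 mM. It was 2.76-fold higher at 2 mM (1.54 to 5.25), 7.00-fold higher at 4 mM (4.13 to 12.8) and 2.76-fold higher at 8 mM (1.55 to 5.22). The pair moved together, but not in equal parts. PC-5p-46215_128 made up 25.1% of the pair with 2 mM pHBA (Wilson interval 19.9 to 31.1), 42.1% with 4 mM (37.4 to 47.0) and 34.1% with 8 mM (27.6 to 41.1), against 45.5% at 0 mM (29.8 to 62.0) from 33 reads. The share at 2 mM was below that at 4 mM beyond counting error. Whether the forms come from separate loci was not tested. The named sequences nearest in mean level were flat by comparison: mes-miR1446_R+1_1ss20TA had 113, 105, 113 and 164.9, and ptc-miR475c had 59, 62.6, 62.9 and 88.1 at 0, 2, 4 and 8 mM.

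PC-5p-36295_177 aligned with PC-5p-25553_269 over 15 columns with 14 matches, a likeness seen on reading the sequences and then aligned for all 946 pairs of candidates. It had 103, 210, 307 and 205 at 0, 2, 4 and 8 mM. That is 2.04-fold higher at 2 mM (1.56 to 2.68), 2.98-fold higher at 4 mM (2.32 to 3.86) and 1.99-fold higher at 8 mM (1.53 to 2.61). Its near neighbour in level, ptc-miR475a-5p, had 238, 184, 209 and 189. PC-3p-58497_92, a 25 nt candidate whose reverse complement matched PC-5p-36295_177 at 19 of 23 columns, had 29.8, 40.4, 65.8 and 25.8. It was 2.21-fold higher at 4 mM (1.36 to 3.72), and its intervals at 2 and 8 mM included 1. All 4 related candidates were highest at 4 mM. They share sequence, so they are not 4 separate observations.

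The largest group of overlapping candidates was led by PC-5p-21240_332, the second most abundant of all. Its level was 115 without pHBA, 284 at 2 mM, 366 at 4 mM and 184 at 8 mM. It was 2.46-fold higher at 2 mM (1.93 to 3.18), 3.18-fold higher at 4 mM (2.51 to 4.06) and 1.59-fold higher at 8 mM (1.23 to 2.08). The 8 members overlapped on both strands at shifting positions, 5 of them were 24 nt long, and no pair among them had 2-base 3′ overhangs at both ends. Summed, the group had 417, 514 and 271 at 2, 4 and 8 mM, against 213 at 0 mM. That is 1.96-fold (1.62 to 2.36), 2.41-fold (2.02 to 2.89) and 1.27-fold (1.05 to 1.55) higher, and with equal totals the ratio at 8 mM was 0.963.

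Members of this group did not move as one. PC-3p-68114_74, of 24 nt, had 6.78, 55.2, 34.98 and 16.9 at 0, 2, 4 and 8 mM, and was 8.14-fold higher at 2 mM (3.29 to 26.05) from 5 reads at 0 mM. PC-3p-43151_141, of 19 nt, had 47.5, 9.86, 38.3 and 34.8, and was 4.81-fold lower at 2 mM (2.33 to 10.9). PC-3p-229467_11, of 18 nt, had 16 reads at 0 mM and 0 in every treated library, at least 7.34-fold, 8.68-fold and 8.12-fold lower at 2, 4 and 8 mM. The 2 shortest members were thus the ones that were lower at 2 mM, while the 24 nt members were higher. PC-3p-177469_17, which holds all 19 bases of PC-3p-43151_141, had 0, 4.93, 10.8 and 4.46. PC-3p-50815_113 had 14.9, 24.6, 31.6 and 16.9, and PC-5p-99778_42 had 6.78, 20.2, 12.1 and 9.80. PC-3p-144023_24 had 0, 17.7, 19.6 and 4.46, at least 4.36-fold and 4.81-fold higher at 2 and 4 mM, while at 8 mM, with 5 raw reads, the bound was 1.10 and its counting interval started at 0.602. Over strands, the 2 members named 5p summed to 122, 304, 379 and 193 and the 6 named 3p to 90.9, 112, 135 and 77.5 at 0, 2, 4 and 8 mM.

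A search for duplexes was made over the 480 pairs of a 5p and a 3p candidate, without gaps, with at least 17 paired bases, at most 3 unpaired and at most 3 G·U pairs. It kept 16 pairs among 23 sequences, and 3 pairs had 2-base 3′ overhangs at both ends, the form that Dicer-like enzymes leave. Both 21 nt pairs of that form had 19 of 19 facing bases paired, with 2 G·U pairs each. The 24 nt pair of PC-5p-162832_20 and PC-3p-153705_22 had 19 paired bases and 3 unpaired.

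The pair of PC-5p-19672_361 and PC-3p-79202_59 was highest in the untreated library. PC-5p-19672_361 had 107, 83.8, 45.8 and 68.6 at 0, 2, 4 and 8 mM, and was 2.34-fold lower at 4 mM (1.64 to 3.36) and 1.56-fold lower at 8 mM (1.13 to 2.17). PC-3p-79202_59 had 33.9, 23.7, 28.3 and 8.02, and was 4.23-fold lower at 8 mM (1.91 to 10.3). The 5p arm thus held 78.0%, 61.8% and 89.5% of the pair's reads at 2, 4 and 8 mM, against 76.0% at 0 mM. The intervals at 4 mM (51.4 to 71.2) and 8 mM (81.3 to 94.4) did not overlap, while each overlapped that at 0 mM (66.9 to 83.2). The nearest named sequence in level, htu-miR160a_R+1, of a family that targets auxin response factors in Arabidopsis, was also highest at 0 mM, with 106, 69.0, 53.3 and 77.5.

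The pair of PC-3p-19917_356 and PC-5p-43210_141 differed little between libraries. PC-3p-19917_356 had 82.7, 76.9, 61.6 and 74.9 at 0, 2, 4 and 8 mM, and PC-5p-43210_141 had 21.7, 26.6, 22.5 and 29.4. All 6 of their intervals against 0 mM included 1. At 8 mM PC-5p-43210_141 was 1.36-fold higher (0.725 to 2.64) and PC-3p-19917_356 1.10-fold lower (0.781 to 1.55), so counting error alone allows a difference in either direction. The 5p arm held 25.7%, 26.7% and 28.2% of the reads at 2, 4 and 8 mM, against 20.8% at 0 mM. The 24 nt pair was scarce. PC-5p-162832_20 had 0, 13, 17 and 11 raw reads and PC-3p-153705_22 had 0, 12, 8 and 7 at 0, 2, 4 and 8 mM, so neither arm was listed without the acid.

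PC-3p-23282_300 paired with PC-5p-98033_43 at 19 of 19 facing bases, but with the 2-base overhangs on the 5′ ends. PC-3p-23282_300 had 160 at 0 mM and 92.7, 93.3 and 93.6 at 2, 4 and 8 mM. It was 1.73-fold lower at 2 mM (1.31 to 2.29), 1.72-fold at 4 mM (1.31 to 2.24) and 1.71-fold at 8 mM (1.303 to 2.25). The 3 treated libraries agreed within a normalized read count, although its raw reads, at 94, 112 and 105, were close to the 118 of the shallower untreated library. PC-5p-98033_43 had 6.78, 14.8, 9.16 and 15.2, with intervals that all included 1.

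**Figure D4:**
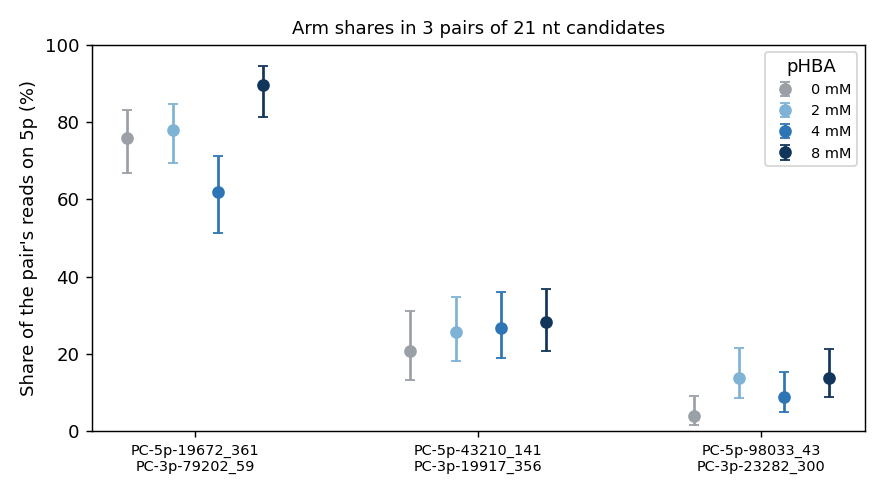
Share of reads (%) on the 5p member in 3 pairs of 21 nt candidates at 0, 2, 4 and 8 mM, with 95% Wilson intervals that cover counting error only. In the pair of PC-5p-19672_361 and PC-3p-79202_59 the share was 61.8% at 4 mM and 89.5% at 8 mM, and the other pairs stayed below 50% in every library.

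PC-5p-30368_221, of 24 nt, had 111, 186, 197 and 125 at 0, 2, 4 and 8 mM. It was 1.68-fold higher at 2 mM (1.29 to 2.199) and 1.77-fold higher at 4 mM (1.37 to 2.30), with a ratio of 1.12 at 8 mM (0.848 to 1.49) that equal totals put at 0.849. Its nearest named sequence in level, ptc-MIR160d-p3|ptc-MIR160a-p3, had 495 at 0 mM and 57.2, 35.8 and 40.1 at 2, 4 and 8 mM. PC-3p-199216_14 faced it with 19 paired bases but with 5-base overhangs at the 5′ ends, and had 0, 0, 5 and 9 raw reads.

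The highest log2 ratios belonged to candidates listed at 0 without the acid, where the fold is a lower bound set against 3 reads. If reads under 5 had been removed before deposit, a 0 could hide 4 reads, and these values would no longer be bounds. PC-5p-44713_134, of 21 nt, had 0, 8, 84 and 59 raw reads at 0, 2, 4 and 8 mM. Its level was at least 1.94-fold, 17.2-fold and 12.9-fold higher at 2, 4 and 8 mM. Its normalized read count was 52.6 at 8 mM and 70.0 at 4 mM but 7.89 at 2 mM, so the low dose stood apart from the other treated libraries. A stretch of 16 bases was the reverse complement of ptc-MIR6469-p3, which had 5 reads at 0 mM and 0 at the other doses.

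PC-3p-70722_70 had 0, 29, 43 and 22 raw reads, and was at least 7.03-fold, 8.80-fold and 4.82-fold higher at 2, 4 and 8 mM. PC-3p-102599_40 had 0, 30, 15 and 18, and was at least 7.27-fold, 3.07-fold and 3.94-fold higher. Both are 21 nt long and begin with T. Together with PC-5p-44713_134 and PC-3p-144023_24 they were the 4 candidates that reached the mean of 10 with 0 reads at 0 mM. PC-5p-92044_47, of 24 nt, had 6.78, 23.7, 76.6 and 14.3, from 5 raw reads at 0 mM. It was 3.49-fold higher at 2 mM (1.305 to 11.7), 11.3-fold higher at 4 mM (4.67 to 35.6) and 2.10-fold higher at 8 mM (0.736 to 7.34).

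Among candidates that reached the minimum mean, the lowest log2 ratios at 2 and 4 mM belonged to PC-3p-71534_69, of 18 nt. At 8 mM the lowest belonged to PC-3p-79202_59, at -1.95, beside -0.68 for PC-3p-71534_69. PC-3p-71534_69 had 67.8 at 0 mM and 4.93, 14.99 and 41.9 at 2, 4 and 8 mM. It was 13.8-fold lower at 2 mM (5.52 to 44.2) and 4.52-fold lower at 4 mM (2.59 to 8.24). At 8 mM it was 1.62-fold lower (1.07 to 2.46). The gap to the untreated library thus narrowed as the dose grew. PC-5p-48937_119 had 20.3, 15.8, 9.99 and 8.91 at 0, 2, 4 and 8 mM, with intervals that included 1 at each dose. PC-3p-63611_82 had 14.9, 9.86, 39.6 and 23.2, and was 2.65-fold higher at 4 mM (1.37 to 5.72).

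No candidate lay within 2 edits of a named sequence, and 43 of 44 were at least 6 edits from the nearest, with a median of 9. The exception at 4 edits was PC-5p-100532_41, which is ptc-miR403c-5p with 4 more bases at its 5′ end. Capitals mark the shared part.
PC-5p-100532_41: ctcgTTTGTGCGTGGATCTGAGGCC
ptc-miR403c-5p: TTTGTGCGTGGATCTGAGGCC
The candidate had 10.9, 12.8, 10.8 and 6.24 at 0, 2, 4 and 8 mM, and ptc-miR403c-5p had 2554, 2702, 2501 and 2890. The main arm of miR403 is known to target AGO2 in Arabidopsis. A shifted overlap, which whole-length edit distance does not show, joined PC-3p-156310_21 to ptc-MIR7836-p3|ptc-MIR7837-p3 by 15 bases on the same strand. PC-3p-156310_21 had 0, 0, 27 and 6 raw reads at 0, 2, 4 and 8 mM, and the named sequence had 0, 15, 45 and 5. Of the candidates, 2 shared a seed with a named sequence: PC-5p-100532_41 with cpa-miR159a_L+4, and PC-5p-92044_47 with ptc-MIR6452-p5. The seed of PC-5p-100532_41 lies partly in its 4 added 5′ bases and is not shared with ptc-miR403c-5p. The named form cpa-miR159a_L+4 begins with the same 4 bases. A common target was not tested.

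PC-3p-55154_100 and PC-3p-181529_17 are nested and end alike. Capitals mark the part in common, which holds the letters GGTTCGA, the run found in the T loop of many transfer RNAs.
PC-3p-55154_100: TCTGTCACCTGGGTTCGAGCC
PC-3p-181529_17: gtcTCTGTCACCTGGGTTCGAGCC
Those 7 letters, searched on the strand as listed, stood in 2 of 44 candidates, in 2 of 485 named sequences and in 0.756% of all sequences. PC-3p-55154_100 had 16.3, 21.7, 32.5 and 31.2 at 0, 2, 4 and 8 mM, and was 2.00-fold higher at 4 mM (1.02 to 4.19). Its intervals at 2 mM (0.632 to 2.95) and 8 mM (0.972 to 4.06) included 1. With equal library totals its ratios were 0.968, 1.35 and 1.45 at 2, 4 and 8 mM. PC-3p-181529_17 was listed at 4 mM alone, with 17 reads. For 35 named sequences listed as like transfer or ribosomal RNA, median log2 ratios were -1.32, -0.19 and -0.69 at 2, 4 and 8 mM. Of these, 0 were at least 2-fold higher. Whether the nested pair comes from a transfer RNA was not tested.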

How the data were processed

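Small RNA of leaves was sequenced in 4 libraries, 1 per dose, each from RNA pooled within a treatment, per the labels' protocols. The submitters' processing notes name bcl2fastq 1.8.4 for base calls. Not given in the sources used here are the mapper, the counter, the prediction program, the genome build and the annotation. Each of the 738 rows holds raw and normalized values for every library, per the file headers. Raw values were deposited by the authors as estimated counts and include fractions. For the normalized signal the authors multiplied each library by a single factor (1.356, 0.986, 0.833 and 0.891 at 0, 2, 4 and 8 mM), which does not give equal totals. A text line in the table, at a p-value of the authors whose test is not named, puts 37 candidates before it and 7 after it, and it was not used.

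Rows that share a sequence were summed. Log2 ratios used a pseudocount of 1 and a minimum mean level of 10. Folds are plain ratios of normalized values with exact 95% conditional binomial intervals on raw reads rounded to whole numbers, and a 0 was replaced by 3 reads for a bound. With 1 library per dose no test was possible. Depth limits the scarce candidates most, since 5 reads at 0 mM leave wide intervals. Sequence relations were shared runs of at least 11 bases, edit distance (edlib 1.3.9), gapless duplexes and local alignments. Python 3.11.15, pandas 2.3.3, numpy 2.4.6 and scipy 1.17.1 were used, and the ratio, interval and duplex steps were tested on simulated data. The text names the 10 most abundant candidates, the 5 highest and 5 lowest ratios at each dose, those related to each other or to named sequences, 2 on either side of the minimum mean, and the nearest named sequence by level. Single-library members outside this rule are named only in counts or sets. The members and lists were chosen with earlier results of these data known, and the local alignments were added after the sequences had been read. Alternatives were a pseudocount of 5, no minimum, a minimum of 50, median-of-ratios and equal-total scaling, a single row per sequence, and leaving out members with 0 reads at 0 mM, the last of these chosen after seeing the data.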

Additional observations from a re-analysis of the deposited data

How the results depend on the processing

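Of 72 values recomputed under 7 alternatives, 50 kept their direction, with counts within 1.5 times the reported ones and sums within their counting interval. The other 22 failed at least 1 of these conditions, and 1 of the 22 reversed in direction. Counts were compared as they stood, although 44 candidates entered with no minimum mean and 9 with a minimum of 50. Medians among the 50 kept their sign but could shrink, with equal table totals to 0.12, 0.37 and 0.08 at 2, 4 and 8 mM. Median-of-ratios scaling lowered the number of higher candidates at 2 mM to 10. Using a single row per sequence lowered it to 10 at 2 mM and to 6 at 8 mM, and the median at 2 mM to 0.43. Without a minimum mean, all 44 candidates entered, and 21, 24 and 14 were at least 2-fold higher and 4, 5 and 4 lower at 2, 4 and 8 mM. With a minimum mean of 50, 9 candidates entered, of which 4, 4 and 2 were higher and 0, 1 and 0 lower. With equal table totals 7 were higher at 2 mM and 5 at 8 mM, while 4 were lower at 4 mM and 6 at 8 mM. The summed ratio then moved to 1.06 at 2 mM and 1.31 at 4 mM, and reversed to 0.961 at 8 mM. At 8 mM a pseudocount of 5 left 5 higher and 1 lower, and leaving out members with 0 reads at 0 mM left 4 of 23 higher, beside 8 at 2 mM and 9 at 4 mM. The shift under equal totals is the difference between the authors' factors and the library totals, and which scale is right was not tested. No paired analysis was possible because each dose had 1 library. Depth limits the low values: counting error at 5 reads spans several-fold, and a listed 0 in the shallower untreated library is weaker evidence of absence than in the others.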
